A study of Rattus norvegicus with 12 samples.

Results

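The genes described here present peptides to T cells through the major histocompatibility complex (MHC), and they were measured in livers of male Brown Norway rats 6 h after 1 oral gavage. The 10 genes are B2m, Tap1, Tap2, Psmb8 and Psmb9, which serve MHC class I, and Cd74, RT1-Da, RT1-Ba, RT1-Bb and RT1-Db1, which form MHC class II. Every probe set that the platform annotation pairs with exactly 1 of these symbols was kept, which gave 15 of the 15866 probe sets tested. All 10 genes were found, and 5 of them had 2 probe sets. Tested rats received D-penicillamine, a thiol drug that binds copper, at 150 mg/kg in 1 mL of tap water (n = 8), and vehicle rats received water (n = 4). Brown Norway is an inbred strain, and the rats, of 150 to 170 g, gave 1 array each. The series title concerns idiosyncratic drug reactions, which are reactions that only some individuals develop. Levels are log2 values after RMA normalization, so that 1 unit is a factor of 2.

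Class I molecules consist of a heavy chain and β2-microglobulin, the product of B2m, and show peptides from inside the cell to CD8+ T cells. Psmb8 and Psmb9 encode catalytic subunits of the immunoproteasome, which cuts proteins into such peptides, and Tap1 and Tap2 encode the subunits of the pump that carries them into the endoplasmic reticulum. Class II molecules consist of an α and a β chain and show peptides from engulfed proteins to CD4+ T cells. Cd74 is the invariant chain that fills their groove until a peptide is loaded. RT1-Da and RT1-Db1 are the rat counterparts of the human DR α and β chains, and RT1-Ba and RT1-Bb those of DQ. In liver, class II is known mainly from Kupffer cells, dendritic cells and B cells, and interferon-γ is the best known inducer of both systems.

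The control regions of these genes are shown because shared elements upstream are the textbook basis for their joint regulation. Class II promoters carry an X box and a Y box in a fixed order. The following sequences are from RefSeq (build GRCr8), are read 5′ to 3′ along the gene's strand and lie between positions -127 and -28, counted from 0 at the transcript start that the RefSeq promoter table uses. That start is the outer end of RefSeq's gene record for 4 of the 10 genes and lies inside the record for the other 6, by 135 bases for Cd74, 94 for B2m, 48 for Psmb9, 22 for RT1-Da, 20 for RT1-Db1 and 18 for Psmb8. The Cd74 sequence is thus within the gene record. Capitals mark the letters TAGCAAC, a core found in X boxes, and TGATTGG, a common form of the Y box.
RT1-Da, chr20:4515319-4515375, plus strand: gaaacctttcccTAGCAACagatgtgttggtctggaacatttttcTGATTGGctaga
RT1-Db1, chr20:4560233-4560289, minus strand: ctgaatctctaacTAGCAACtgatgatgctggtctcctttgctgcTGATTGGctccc
RT1-Ba, chr20:4576967-4577023, plus strand: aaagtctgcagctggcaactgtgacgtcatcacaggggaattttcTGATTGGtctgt
RT1-Bb, chr20:4604170-4604226, minus strand: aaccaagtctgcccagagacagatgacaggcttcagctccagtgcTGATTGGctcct
Cd74, chr18:56527122-56527178, plus strand: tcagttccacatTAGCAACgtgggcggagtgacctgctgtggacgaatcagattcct

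The 4 class II chain genes all held TGATTGG, with its first base between positions -82 and -45 from that start. In RT1-Da and RT1-Db1 it followed TAGCAAC after 26 and 25 bases. RT1-Ba and RT1-Bb held no TAGCAAC, but only these exact letters were searched, so an X box with other letters would be missed. Cd74 held TAGCAAC without TGATTGG. Searched on both strands, from 250 bases before to 50 after the start, TGATTGG was present in 7.06% of 33465 rat promoters and TAGCAAC in 3.58%. Among the 10 genes, 5 held TGATTGG (Psmb9, past its start, besides the class II chains) and 4 held TAGCAAC (Tap2, Cd74, RT1-Da and RT1-Db1).

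Promoters of the class I side are known for interferon-stimulated elements, whose repeated GAAA motif is marked in capitals on either strand, with 10 bases around it.
B2m, chr3:129549170-129549199, plus strand: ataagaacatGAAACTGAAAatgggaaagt
Tap1, chr20:4668645-4668674, minus strand: cggtggctgcTTTCGGTTTCttcttcctct
Tap2, chr20:4652318-4652347, minus strand: gcagcgaagtGAAAGCGAAAgcccgggacc
Psmb8, chr20:4657016-4657045, minus strand: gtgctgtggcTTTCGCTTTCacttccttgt

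The pattern of GAAA, any 2 bases and GAAA, on either strand, was present in these 4 promoters and in 3.92% of all rat promoters searched. In Psmb8 it spans the transcript start, from position -4 to 5, and the printed Psmb8 sequence lies within the gene record. Psmb9 held none in its window. It lies head to head with Tap1, with 457 bases between the starts of the promoter table and 409 between the ends of the gene records. These letters are a description, and the motifs were picked with the sequences in view.

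The arrays had medians from 6.30 to 6.35. Vehicle rat 3 stood apart in the difference between 3′ and 5′ probe sets of control transcripts, a sign of RNA quality, with 1.185 against 0.43 to 0.605 in the other 11 rats. The D-penicillamine arrays were scanned after the last vehicle array, so scan order and group cannot be told apart.

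At 6 h, D-penicillamine rats and vehicle rats did not differ detectably in any of these transcripts, and the intervals around the differences were narrow. In the limma fit, which tests each probe set on the log2 scale and adjusts over all 15866, 0 of the 15 probe sets passed an adjusted p of 0.05 (0% of all probe sets passed) and the smallest adjusted p among them was 0.832. No member of the 15 had an unadjusted p under 0.05 (0 of 15, against 6.16% of all probe sets), and the exact permutation test gave a smallest p of 0.145. Groups that do not overlap were found for 0 of 15, against 0.574% of all probe sets (0.195% higher and 0.378% lower in D-penicillamine rats). The 95% intervals of all 15 lay within 1.25-fold in either direction, from 19.1% lower to 24.3% higher. Over all probe sets, 90.7% had an interval within 1.25-fold. Of the 15, 4 lay below the median signal, and without detection calls their intervals may say little about the transcript. The median difference was 0.016 over the 15 probe sets and -0.0025 over all probe sets, with 10 higher and 5 lower in D-penicillamine rats. In a bulk sample, fewer cells of a type and less RNA per cell cannot be told apart.

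**Figure D1:**
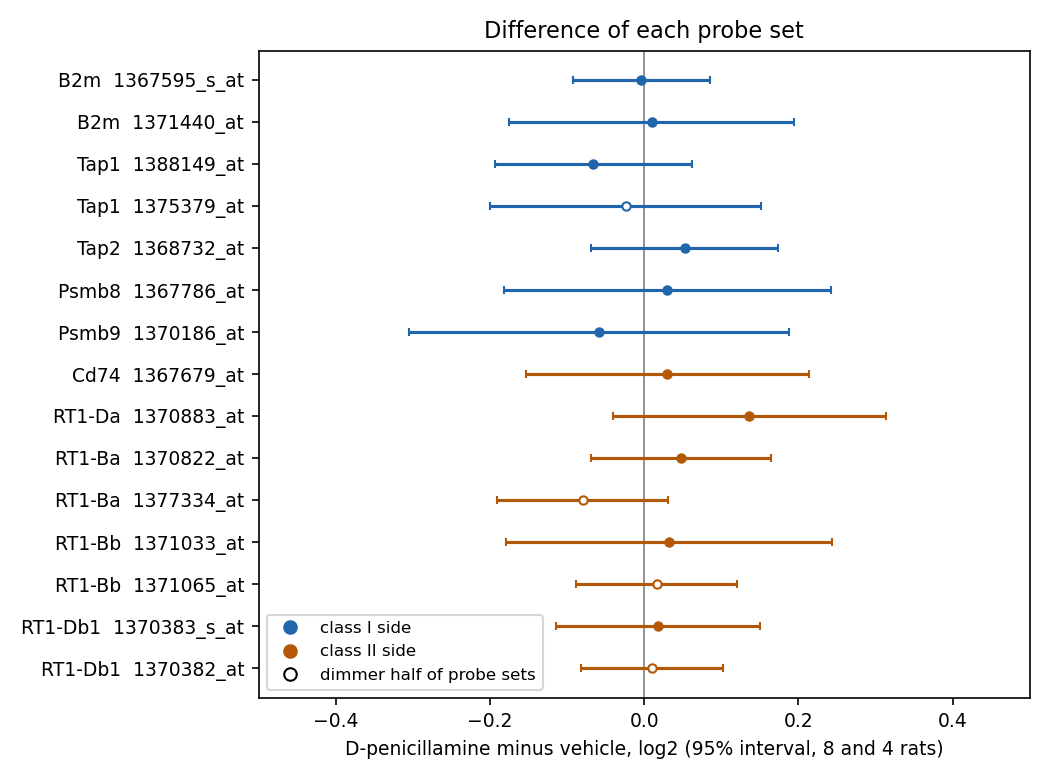
Difference between D-penicillamine and vehicle rats on the log2 scale (x axis) for each of the 15 probe sets (rows), with 95% intervals from limma. Blue marks the class I side, orange the class II side and open symbols probe sets below the median signal. Every interval includes 0, and the widest reaches -0.31.

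On the class I side, 3 of 7 probe sets lay higher and 4 lower in D-penicillamine rats, with a median difference of -0.0037. The bright probe set of B2m, the light chain of every class I molecule, ran from 12.85 through a median of 12.89 to 12.94 in D-penicillamine rats, against 13.00, 12.84, 12.86 and 12.87 in vehicle rats. The D-penicillamine rats all lay within the vehicle range, and the difference was -0.0037 (SE 0.04, adjusted p = 0.991, limma). This was the narrowest spread of the 15 probe sets in D-penicillamine rats (SD 0.030, n = 8). The other B2m probe set had a median of 9.69 and a range from 9.40 to 9.85 in D-penicillamine rats, against 9.54, 9.53, 9.85 and 9.60 in vehicle rats.

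Psmb8 had the values 7.87, 8.06 and 8.38 as lowest, median and highest in D-penicillamine rats, against 8.14, 7.78, 8.16 and 8.18 in vehicle rats. Means were 8.10 ± 0.18 in D-penicillamine rats and 8.07 ± 0.19 in vehicle rats (SD, n = 8 and 4), a difference of 0.03 (SE 0.10, adjusted p = 0.969, limma). Vehicle rat 2 lay below every other rat for this gene. Its partner Psmb9 ran from 7.06 through 7.30 to 7.69 in D-penicillamine rats, against 7.49, 6.98, 7.62 and 7.41 in vehicle rats. Here the vehicle rats spanned nearly the whole range, with the lowest value again in vehicle rat 2. The difference of -0.06 (SE 0.12) had the widest interval of the 15, from -0.31 to 0.19, and without vehicle rat 2 it was -0.19.

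For the peptide pump, Tap1 had a lowest value of 6.77, a median of 6.83 and a highest of 7.08 in D-penicillamine rats, against 7.03, 6.85, 6.93 and 6.91 in vehicle rats. Most D-penicillamine rats, 6 of 8, lay below the vehicle mean, and the groups overlapped (difference -0.07, SE 0.06, adjusted p = 0.878, limma). The dimmer Tap1 probe set differed by -0.02 (SE 0.08). Tap2 ran from 6.52 through 6.57 to 6.76 in D-penicillamine rats, against 6.64, 6.51, 6.47 and 6.61 in vehicle rats. Its difference was 0.05 (SE 0.06), with 4 of 8 D-penicillamine rats above the vehicle mean.

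**Figure D2:**
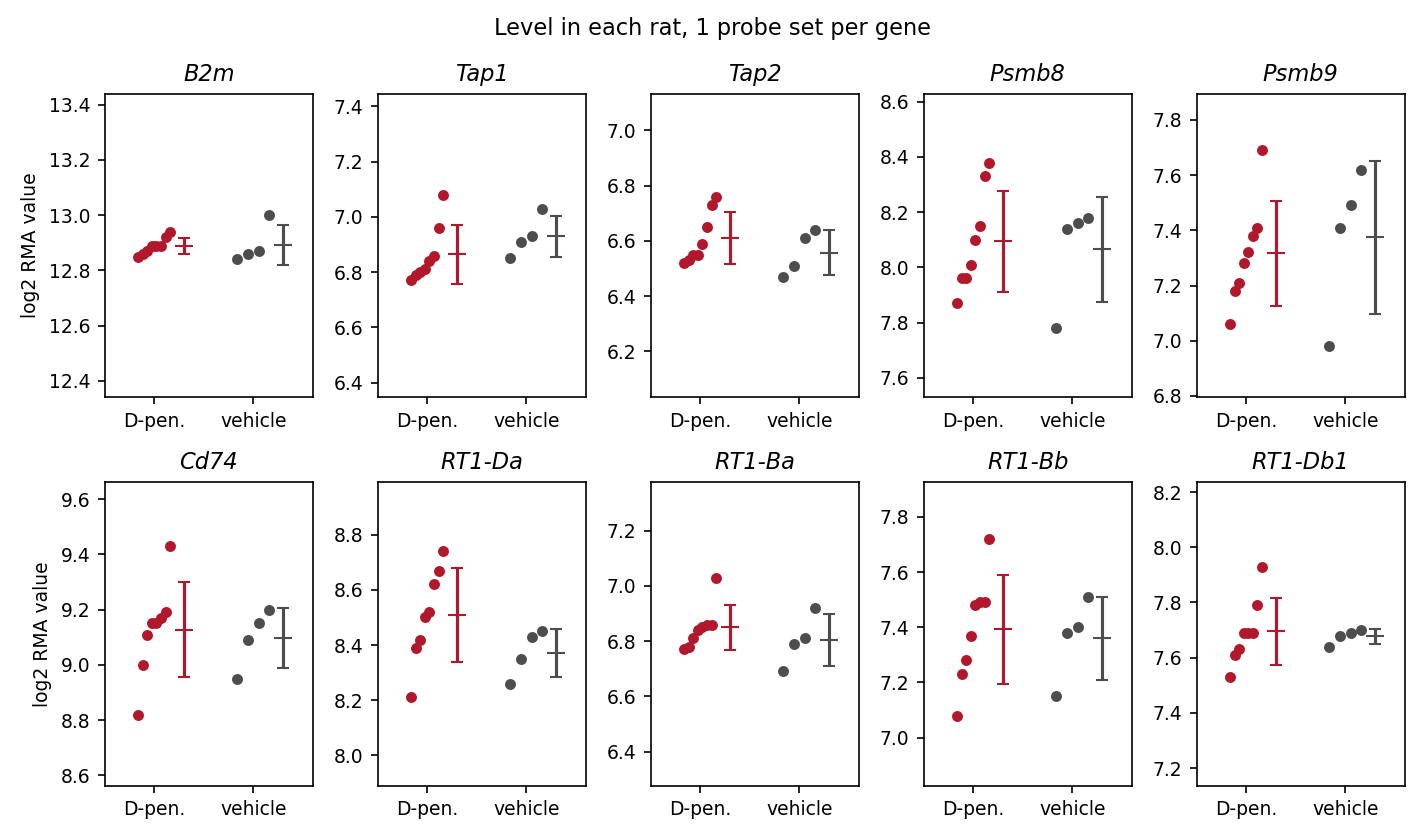
Level of each gene as log2 RMA value (y axis, the same span in every panel) in each rat, for the probe set with the highest mean. Points are rats, D-penicillamine (red, n = 8) left of vehicle (grey, n = 4), and bars give mean and SD. The groups overlap in all 10 panels, and RT1-Da shows the largest difference, 0.14.

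On the class II side, 7 of 8 probe sets lay higher and 1 lower, with a median difference of 0.024. RT1-Da, the DR-like α chain, had the largest difference of the 15 probe sets. It had a lowest value of 8.21, a median of 8.51 and a highest of 8.74 in D-penicillamine rats, against 8.35, 8.26, 8.43 and 8.45 in vehicle rats. Its difference was 0.14 (SE 0.08, 95% interval -0.04 to 0.31, adjusted p = 0.832, limma), and 7 of 8 D-penicillamine rats lay above the vehicle mean. D-penicillamine rat 4 was the exception and lay below all vehicle rats. Without it the difference was 0.18 with an unadjusted p of 0.0202 and an adjusted p of 0.71 (limma), and without vehicle rat 3 it was 0.16. The bright probe set of RT1-Db1, the β chain that pairs with it, ran from 7.53 through 7.69 to 7.93 in D-penicillamine rats, against 7.68, 7.64, 7.70 and 7.69 in vehicle rats (difference 0.02, SE 0.06). The contrast between both genes was not tested. The vehicle rats sat within 0.06 of each other, while D-penicillamine rats lay on both sides of them (SD 0.12 against 0.026).

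Cd74 ran from 8.82 through 9.15 to 9.43 in D-penicillamine rats, against 9.15, 8.95, 9.20 and 9.09 in vehicle rats. The highest and the lowest of all 12 values were both in D-penicillamine rats, the group that holds 8 of the 12 rats. The difference was 0.03 (SE 0.09, 95% interval -0.15 to 0.21). For the DQ-like pair, the bright probe set of RT1-Ba had 6.77, 6.85 and 7.03 as lowest, median and highest in D-penicillamine rats, against 6.92, 6.69, 6.81 and 6.79 in vehicle rats (difference 0.05, SE 0.05). RT1-Bb had 7.08, 7.43 and 7.72 in D-penicillamine rats, against 7.38, 7.15, 7.51 and 7.40 in vehicle rats (difference 0.03, SE 0.10). Both groups overlapped for either chain. The dim probe set of RT1-Ba had the opposite sign to the bright one, at -0.08 (SE 0.05), and the dim ones of RT1-Bb and RT1-Db1 were at 0.016 and 0.010.

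The 2 probe sets of a gene did not follow each other from rat to rat. With group means removed, Pearson's r between them over 12 rats was -0.08 for B2m, 0.20 for Tap1, 0.02 for RT1-Ba, -0.09 for RT1-Bb and -0.07 for RT1-Db1. In 4 of these 5 genes the second probe set lay below the median signal of the array, and only in B2m were both above it. Patterns between rats are therefore described from the brighter probe set alone, and they could not be seen in the other one.

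Within a rat the class II genes tended to lie on the same side of the group mean. D-penicillamine rat 1 had the highest value of the treated group for 5 of 5 class II genes, whereas among all brighter probe sets it was highest in 11.2%. D-penicillamine rat 5 was lowest for 3 of 5, against 7.01% of brighter probe sets. Among vehicle rats, rat 2 was lowest for 5 of 5 class II genes and for 4 of 5 class I genes, against 19.1% of brighter probe sets. Between the highest and the lowest D-penicillamine rat the gap was 1.53-fold for Cd74, 1.56-fold for RT1-Bb and 1.44-fold for RT1-Da. The SD was larger in D-penicillamine than in vehicle rats for 9 of 15 probe sets, against 66.8% of all probe sets.

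**Figure D3:**
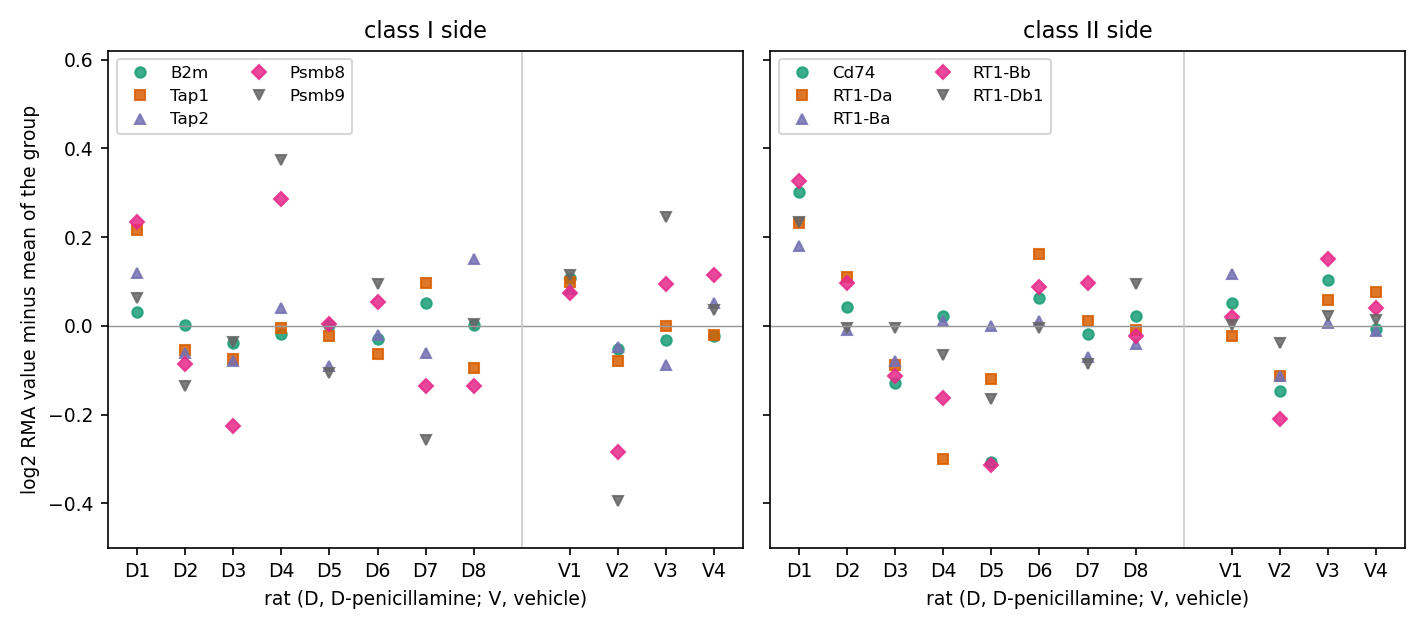
Level in each rat as log2 RMA value minus the mean of its group (y axis), for the 5 class I genes (left panel) and the 5 class II genes (right panel). D1 to D8 are D-penicillamine rats and V1 to V4 vehicle rats. The class II genes lie together above the mean in D1, and all 5 lie below it in V2.

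Correlations between genes were computed over 12 rats with the group means removed, for 45 pairs of genes. Pearson's r was positive in 44 of 45 pairs, with a median of 0.65 within class II, 0.37 within class I and 0.36 between the sides. After Benjamini-Hochberg adjustment over the 45 pairs, 6 pairs passed 0.05 in a permutation test, 3 of them within class II. Cd74 and RT1-Bb had r = 0.90 and rho = 0.77 (adjusted permutation p = 0.0333 for r and 0.0698 for rho), and r was 0.74 without the 2 rats farthest from the median of Cd74. For every pair of genes the 2 farthest rats are those farthest from the median of the gene named first. RT1-Da and RT1-Bb had r = 0.84 and rho = 0.87 (adjusted permutation p = 0.0473 and 0.0391), and r stayed at 0.84 without the 2 farthest rats. Cd74 and RT1-Db1 had r = 0.82 and rho = 0.69 (adjusted permutation p = 0.0473 and 0.0845), but r was 0.28 without D-penicillamine rats 1 and 5. Those rats hold the highest and lowest Cd74 values, 9.43 and 8.82, so leaving out both narrows the range of Cd74. Leaving out 1 rat kept r between 0.662 and 0.855 for this pair. The chains that form a dimer did not pass. RT1-Da and RT1-Db1 had r = 0.63 and rho = 0.60 (adjusted permutation p = 0.195 and 0.177), and r = 0.41 without the 2 farthest rats. RT1-Ba and RT1-Bb had r = 0.56 and rho = 0.37 (adjusted permutation p = 0.195 and 0.476), and r = 0.25 without the 2 farthest rats.

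Within class I, the immunoproteasome subunits Psmb8 and Psmb9 had r = 0.81 and rho = 0.81 (adjusted permutation p = 0.0473 and 0.0698), and r = 0.60 without D-penicillamine rat 4 and vehicle rat 2. Tap1 and Psmb9, which lie head to head, had r = 0.17 and rho = 0.43 (adjusted permutation p = 0.647 and 0.394), and r = 0.048 without the 2 farthest rats. B2m and Tap1 had r = 0.69 and rho = 0.60 (adjusted permutation p = 0.0473 and 0.177), and r = 0.65 without the 2 farthest rats. With the mean of all probe sets of a gene r was 0.067 for B2m and Tap1, 0.52 for Psmb8 and RT1-Ba, 0.67 for Cd74 and RT1-Db1, 0.76 for RT1-Da and RT1-Bb, 0.81 for Psmb8 and Psmb9 and 0.91 for Cd74 and RT1-Bb, and 0 pairs passed. Across the sides, Psmb8 and RT1-Ba had r = 0.76 and rho = 0.82 (adjusted permutation p = 0.0473 and 0.0436), with r = 0.82 without the 2 farthest rats. These calls were near the threshold. No pair passed when any 1 of D-penicillamine rats 1, 2, 3 and 6 or vehicle rats 2, 3 and 4 was left out, 1 passed without D-penicillamine rat 5 or 8, and 3 passed without vehicle rat 1. Leaving out 1 rat kept r between 0.84 and 0.96 for Cd74 and RT1-Bb, between 0.77 and 0.90 for RT1-Da and RT1-Bb, and between 0.71 and 0.86 for Psmb8 and Psmb9. In the 8 D-penicillamine rats alone 0 of 45 pairs passed, while r was 0.90 for Cd74 and RT1-Bb, 0.84 for RT1-Da and RT1-Bb, 0.845 for Cd74 and RT1-Db1, 0.77 for Psmb8 and RT1-Ba, 0.745 for Psmb8 and Psmb9 and 0.73 for B2m and Tap1.

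**Figure D4:**
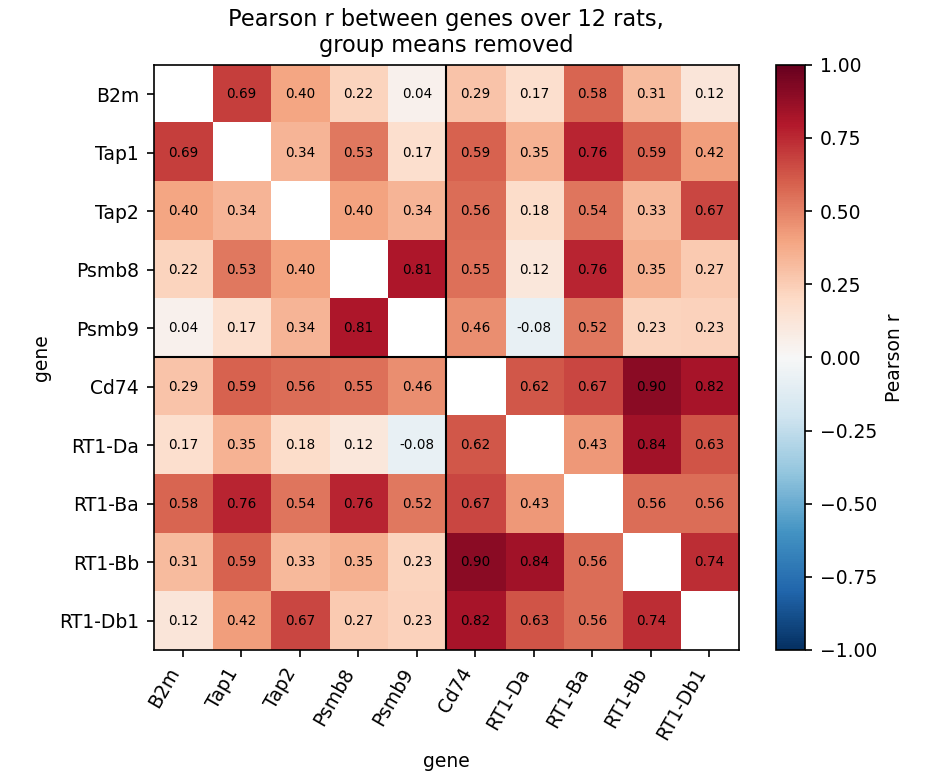
Pearson's r between the 10 genes (both axes) over 12 rats after removal of the group means, with the value printed in each cell. Black lines part the class I genes from the class II genes. The highest value is 0.90 for Cd74 and RT1-Bb, and the one negative pair is RT1-Da with Psmb9 at -0.08.

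Levels of 4 of these genes (Cd74, RT1-Da, Psmb8 and Psmb9) were also set against marker lists of other cells and the sign of RNA quality, which gave 44 relations between rats. After adjustment 0 of them passed, and 8 had an unadjusted permutation p under 0.05. The mean of the 10 measured markers of Kupffer cells and macrophages, such as C1qc, Csf1r and Tyrobp, ran from 8.56 to 8.70 in D-penicillamine rats and from 8.51 to 8.66 in vehicle rats, with the lowest value of all in vehicle rat 2. Against Cd74 it had r = 0.68 and rho = 0.62 (permutation p = 0.0148 for r, adjusted p = 0.146 over the 44 relations computed), and r = 0.81 without the 2 farthest rats. For these relations the 2 farthest rats are those farthest from the median of the marker list, not of the gene. Of those 10 markers 9 lay higher in D-penicillamine rats, 3 of them with an unadjusted p under 0.05 in limma and 0 past the adjusted threshold, against 2.68% of all probe sets in that direction. The mean of 9 stellate cell and fibroblast markers ran from 6.55 to 6.79 in D-penicillamine rats and from 6.52 to 6.86 in vehicle rats. Of these 9 markers 7 lay lower in D-penicillamine rats, 3 of them (Lum, Acta2 and Pdgfrb) with an unadjusted p under 0.05 in limma and 0 past the adjusted threshold, against 3.48% of all probe sets in that direction. Against Cd74 it had r = 0.65 and rho = 0.66 (adjusted permutation p = 0.146 and 0.424), and r = 0.36 without the 2 farthest rats. Against RT1-Da it had r = 0.63 and rho = 0.73 (adjusted permutation p = 0.146 and 0.339), and r = 0.46 without the 2 farthest rats. The 10 hepatocyte markers were all measured, with means from 13.15 to 13.42 in D-penicillamine rats and from 13.18 to 13.36 in vehicle rats, and marked the tissue as liver. Against Psmb8 their mean had r = -0.67 and rho = -0.62 (adjusted permutation p = 0.146 and 0.424), and r = -0.52 without the 2 farthest rats. The B cell list had 1 measured gene of 10, Cd79b, which lay below the median signal, and the dendritic cell list 3 of 9. The T and NK cell list had 13, of which 1 lay above the median signal. The other relations of the 8 were RT1-Da with the red blood cell list (r = -0.68, rho = -0.60, adjusted permutation p = 0.146 and 0.424, r = -0.42 without the 2 farthest rats), Psmb8 and Psmb9 with Cd79b, and Psmb8 with the neutrophil list. Psmb8 and Cd79b had r = 0.69 and rho = 0.63 (adjusted permutation p = 0.146 and 0.424), and r = 0.51 without the 2 farthest rats. Psmb9 and Cd79b had r = 0.61 and rho = 0.54 (adjusted permutation p = 0.146 and 0.424), and r = 0.51 without the 2 farthest rats. Psmb8 and the neutrophil list had r = 0.60 and rho = 0.42 (adjusted permutation p = 0.244 and 0.623), and r = 0.31 without the 2 farthest rats. Their part in the correlations between genes was not tested.

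Outside the 10 genes, those whose levels followed Cd74 most closely between rats, among 6800 other probe sets with 1 symbol and a signal above the median, were Msn (r = 0.93), a linker of actin to the membrane, Folr2 (0.90), a folate receptor of macrophages, and Ccl6 (0.87), a chemokine. They were followed by Tmem127 (0.82), Pmp22 (0.82), Fcer1g (0.81), the γ chain of Fc receptors, Icam2 (0.79), an adhesion molecule, and Nrxn2 (0.78). For Psmb9 the closest were Stap2 (0.94), Ppt1 (0.89), a lysosomal thioesterase, Cyba (0.83), a subunit of the phagocyte oxidase, Vim (0.82), the filament protein vimentin, Midn (0.82), and Orm1 (0.82), an acute phase protein of plasma. Psmb10, the remaining catalytic subunit of the immunoproteasome, came next (0.80), with Serpinf2 (0.80). These are Pearson correlations over 12 rats with group means removed, picked as the highest of many, on arrays normalized together.

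The other genes of both pathways gave 0 calls after adjustment as well. Of 15 measured class I heavy chain and class I-like genes, 7 lay higher and 8 lower, with 0 past the adjusted threshold and 0 at an unadjusted p under 0.05 in limma (median -0.0075). RT1-CE5 differed by -0.0075 (SE 0.06) and RT1-A3 by -0.04 (SE 0.06). The smallest p-values of this list belonged to RT1-M3-1 at -0.07 (SE 0.05), Hfe, which controls iron uptake, at 0.08 (SE 0.07), and RT1-CE10 at -0.07 (SE 0.08). Rat class I genes are close copies of each other, so their probe sets may share signal. Of 8 measured class I partners 3 lay higher and 5 lower (median -0.031, 0 past either threshold in limma). Among them were the peptide loader Tapbp at 0.03 (SE 0.06), the proteasome activators Psme1 at -0.05 (SE 0.06) and Psme2 at -0.03 (SE 0.04), Psmb10 at 0.05 (SE 0.08) and the peptide trimmer Erap1 at -0.09 (SE 0.06). The chaperones of the endoplasmic reticulum Calr, Canx and Pdia3 differed by -0.085 (SE 0.10), 0.12 (SE 0.12) and -0.03 (SE 0.10). Without vehicle rat 3 that of Canx was -0.0758. The other probe sets of Canx were at -0.08 and 0.016, and that of Pdia3 at -0.09. Of the 3 subunits of the standard proteasome that the immunosubunits replace, 2 were measured. They differed by -0.04 (Psmb5, SE 0.06) and 0.02 (Psmb7, SE 0.07). Psmb6 had no probe set of its own and was not measured.

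Class II partners included the lowest unadjusted p-values of these lists. Of 12 measured genes 7 lay higher and 5 lower (median 0.044), 0 passed the adjusted threshold, and 2 higher and 1 lower had an unadjusted p under 0.05 in limma, against 2.68% and 3.48% of all probe sets. Ctss, the cathepsin that degrades the invariant chain, averaged 9.28 ± 0.08 in D-penicillamine rats and 9.12 ± 0.06 in vehicle rats (SD, n = 8 and 4), a difference of 0.16 (SE 0.05, adjusted p = 0.693, limma). Ctsl, another lysosomal cathepsin, differed by 0.18 (SE 0.07, adjusted p = 0.715, limma), while its other probe set differed by 0.0037 (SE 0.07). Cd80, a costimulator of T cells with a signal below the median, was at -0.11 (SE 0.05, adjusted p = 0.788, limma). Without vehicle rat 4 its unadjusted p was 0.172 (limma), and the call was lost without several other single rats as well. For Ctsl the unadjusted p was 0.054 without vehicle rat 2 and 0.0571 without vehicle rat 3 (limma). For Ctss it stayed under 0.05 on leaving out each rat. The loading factors RT1-DMa and RT1-DMb lay at 0.11 (SE 0.08) and 0.07 (SE 0.07), the lysosomal reductase Ifi30 at 0.09 (SE 0.05) and the protease Lgmn at -0.02 (SE 0.06).

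The factors that switch MHC genes on showed no difference that passed. Of 14 measured regulators 9 lay higher and 5 lower (median 0.019), with 0 past the adjusted threshold and 0 at an unadjusted p under 0.05 in limma. Ciita, the master activator of class II, averaged 7.00 ± 0.08 in D-penicillamine rats and 7.04 ± 0.08 in vehicle rats, a difference of -0.03 (SE 0.05). Rfx5, which binds the X box, was at -0.07 (SE 0.06), and its partner Rfxank at 0.11 (SE 0.06). Irf1, which acts at interferon-stimulated elements, was at 0.14 (SE 0.10), Irf8 at -0.02 (SE 0.08) and the interferon-γ receptor chain Ifngr2 at 0.16 (SE 0.08). Of 12 interferon-γ targets 6 lay higher and 6 lower (median 0.019), 0 passed the adjusted threshold, and Lap3 had an unadjusted p under 0.05 in limma at -0.20 (SE 0.09, against 3.48% of all probe sets in that direction). Without vehicle rat 3 the Lap3 difference was -0.0846 and the unadjusted call was lost. The call was also lost without any 1 of D-penicillamine rats 1, 4, 5 and 8. Socs1, a feedback inhibitor of the same pathway, was at 0.07 (SE 0.04).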

How the data were processed

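Liver RNA of 12 rats was measured on Affymetrix RAE230A arrays (chip type per the file headers), 1 per rat. The authors deposited log2 values made with RMA, per the submitters' processing notes. No RMA version, filter or genome build is given in the sources used here. RMA sets all arrays to nearly 1 distribution, so a shift of most transcripts could not be seen. The values carry no detection call, and precision is limited by how many arrays there are. The deposited scan records gave chip lot and scan order (1 lot, 1 scan day).

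Of 15923 probe sets, 57 array controls were left out. Symbols came from the platform annotation, updated by gene identifier (12783 with 1 symbol, 312 with several and not named, 2771 with none). Groups were compared in limma 3.58.1 (R 4.3.3) with lmFit and eBayes, two-sided, adjusted by Benjamini-Hochberg over 15866 probe sets. The exact permutation test covered all 495 splits of 12 arrays into 8 and 4 (smallest possible p 0.00202). Correlations between rats used 100000 permutations within groups, two-sided. The limma fit and the permutation test of correlations were run on simulated data, and the exact permutation test was not. The planted differences and correlations were larger than any found among the 10 genes over all 12 arrays. Those runs therefore do not show how well effects of the size reported here would be found. The 10 genes and all lists were chosen with earlier results of these data known. Other named genes were 25 fixed ones, of which 20 had a probe set of their own, and the 3 genes with the smallest p of each pathway list. The probe set with the highest mean stood for a gene. The relations with marker lists were added after the data were seen.

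Settings tried were leaving out each rat, leaving out vehicle rat 3 with D-penicillamine rat 4, a replicate block, median centring, a further quantile normalization, probe sets above the median signal only, array weights, the sign of RNA quality as a covariate, and a trended, robust variance.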

Additional observations from a re-analysis of the deposited data

Results flagged for a closer look

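In 3 of the 30 groups of values examined (15 probe sets in 2 groups), 1 rat lay far from the rest by Dixon's criterion, where chance gives about 1 in 20. Psmb8 was at 7.78 in vehicle rat 2, against 8.14 to 8.18 in the other vehicle rats. The dim probe set of Tap1 was at 5.18 in the same rat, against 5.01 to 5.02. The bright Tap1 probe set was lowest in that rat among the vehicle rats, at 6.85, so the high value was seen in the dim one alone. RT1-Ba was at 7.03 in D-penicillamine rat 1, against 6.77 to 6.86 in the other D-penicillamine rats.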

How the results depend on the processing

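In every setting listed, 0 of the 15 probe sets passed the adjusted threshold in limma, and the smallest adjusted p among them lay between 0.556 and 0.999. The count with an unadjusted p under 0.05 was 0, except 1 (RT1-Da) without D-penicillamine rat 4, without it and vehicle rat 3 together, and with array weights; on leaving out each rat it ran from 0 to 1. The median difference ran from -0.019 to 0.032 on leaving out each rat. The count of correlated pairs, 6 as reported, ran from 0 to 5 on leaving out each rat. It was 10 after a further quantile normalization, 0 when all probe sets of a gene were averaged, 0 in D-penicillamine rats alone and 0 without D-penicillamine rats 1 and 5, the last chosen after seeing the data; the cause was not tested. Signs turned in several settings, for Canx from 0.12 and otherwise from values closer to 0, none of them past the adjusted threshold. Without vehicle rat 3 and D-penicillamine rat 4 these were the dim Tap1 (0.0086) and RT1-Bb (-0.024) probe sets, Canx (-0.069), Lgmn (0.0076), RT1-CE5 (0.04) and Tapbp (-0.0395). With array weights they were B2m (0.0003), Psmb8 (-0.0097), Canx (-0.016) and Tapbp (-0.026), and with the 3′ minus 5′ covariate Psmb9 (0.036), the dim RT1-Bb (-0.022), Canx (-0.0741), Lgmn (0.013), Psme2 (0.017) and Tapbp (-0.0299). The replicate block over rats 1 to 4, which share only a number (correlations of deviations -0.164 to 0.245), gave a median of 0.0575 and 0 calls. In it, and in the same rats with no block, signs turned for the second B2m probe set (-0.035), Psmb9 (0.0075), the dim RT1-Db1 (-0.0025), Irf8 (0.065), Lgmn (0.0025), Pdia3 (0.0625) and Psmb7 (-0.03). Leaving out each rat, 23 differences of the 15 probe sets turned sign and 157 did not, and 13 of other named genes did and 347 did not. The ranges that cross 0 were -0.0213 to 0.0321 and -0.0233 to 0.0833 for B2m, -0.0536 to 0.0236 for the dim Tap1 probe set, -0.065 to 0.0683 for Psmb8, -0.1904 to 0.0229 for Psmb9, -0.0192 to 0.0739 for Cd74, -0.0375 to 0.0825 and -0.0204 to 0.0462 for RT1-Bb, -0.0161 to 0.0411 and -0.0067 to 0.0233 for RT1-Db1, -0.0758 to 0.2142 for Canx, -0.0657 to 0.01 for Irf8, -0.0496 to 0.0171 for Lgmn, -0.1096 to 0.0304 for Pdia3, -0.0058 to 0.0843 for Psmb10, -0.0025 to 0.0604 for Psmb7, -0.0437 to 0.0096 for Psme2, -0.0575 to 0.02 for RT1-CE5 and -0.0229 to 0.0637 for Tapbp.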
